A study of Homo sapiens with 12 samples.

Results

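The claudins CLDN3, CLDN4, CLDN6, CLDN7 and CLDN10, the tight junction protein gene OCLN, the adhesion gene EPCAM, the trafficking gene RAB25 and the transcription factor gene GRHL2 were followed in human embryonic stem cells. They were grouped by name as claudins and epithelial junction genes, and were chosen with earlier results of these data known. Counts and medians of the members beside those of all genes are therefore descriptions, not a test of the group. The members are 9 of the 19775 genes with a probe set of their own, and 16 of the 54675 probe sets on the arrays read them. The cells were H9, an established line, carrying a Tet-on construct that expresses GCNF (the orphan nuclear receptor encoded by NR6A1) when doxycycline (Dox) is added. All 4 groups carried the construct, at passages 28 to 35, and each was measured on 3 arrays of total RNA. The d0 group was undifferentiated, on Matrigel in mTeSR without an agent, and the d0 Dox group was kept alike with 1 µg/ml Dox for 4 days. At day 6, in DMEM/F12 with serum, 1 group is labelled as given 1 µM retinoic acid (RA) and the other 1 µg/ml Dox, each for 6 days. The question set by the design was what GCNF changes in undifferentiated cells and in differentiating cells. Cells without the construct given Dox, and day 6 cells given neither agent, were not analysed here, so Dox itself and GCNF cannot be told apart.

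Tight junctions seal the space between neighbouring epithelial cells near their apical border, and claudins are the membrane proteins that form their strands. Some claudins tighten the seal, while others, CLDN10 among them, form pores for small ions, and occludin (OCLN) joins the strands and shapes their turnover. EPCAM is a surface protein of epithelial and pluripotent cells that binds and stabilises certain claudins, RAB25 is a small GTPase of the RAB11 family that carries membrane cargo to the apical surface, and GRHL2 is a grainyhead factor that switches on epithelial junction genes. Human embryonic stem cells grow as an epithelium-like sheet, so many of these genes are normally on before differentiation.

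The deposited values are linear intensities, with the same trimmed mean of 499.9 on every array (2% trimmed at each end), medians of 64.2 to 78.0, and correlations of 0.980 to 0.982 between replicates. The labels name biological replicates but not how the cultures of a group were kept apart, and the p-values reflect array-to-array spread that may be technical. NR6A1 was higher with Dox at d0 on all 7 of its probe sets, 6 of them past the test. At day 6 it went against the labels on 3 probe sets, called lower in the arrays labelled Dox, with 3 others called higher. The 3 lower ones had the largest log2 rises with Dox at d0 (3.96, 2.33 and 1.79). The 3 higher ones had risen by 0.62 to 0.97. The probe set that rose most stood at 26.8 at d0, 615 with Dox, 336 in the arrays labelled RA and 29.2 in those labelled Dox. CYP26A1, an RA-degrading enzyme that RA induces, also went against the labels, at 271 ± 37.0 (SD, n = 3) in the arrays labelled RA and 29594 ± 1005 in those labelled Dox. Below, these groups bear the names RA-labelled and Dox-labelled, and each direction between them rests on the labels. Markers of pluripotent cells summed to 105213 to 115015 at d0, 95179 to 100753 with Dox, and 18010 to 20036 over both day 6 groups. In bulk RNA, fewer cells expressing a gene and less RNA per cell cannot be told apart.

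CLDN3, a sealing claudin, was read at 274, 393 and 265 on the d0 arrays and at 291, 233 and 242 with Dox. At day 6 it stood at 94.2, 57.3 and 59.3 on the RA-labelled arrays and at 88.0, 121 and 129.5 on the Dox-labelled arrays. All day 6 arrays were below all d0 arrays, while the groups overlapped within each day. The probe set is of the kind that can share sequence with other genes, and another CLDN3 probe set had lower means in both day 6 groups than in either d0 group.

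CLDN4, also a sealing claudin and a neighbour of CLDN3 on chromosome 7, went the other way over time. Its intensities were 93.8, 139.5 and 71.9 at d0, and 93.8, 116 and 153 with Dox. They were 491, 488 and 541 on the RA-labelled arrays, and 387, 267 and 263 on the Dox-labelled arrays. All 6 day 6 arrays were above all 6 d0 arrays, and the RA-labelled arrays were above the Dox-labelled ones without overlap.

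No annotated gene of the RefSeq table lay wholly between CLDN3 and CLDN4. Their promoter windows, from 250 bases before to 50 after the annotated start (RefSeq, GRCh38.p14), are shown because these neighbours changed in opposite directions. Letters in capitals mark the E-box CACCTG on either strand (CAGGTG on the other), which the ZEB and SNAI repressors of epithelial genes are known to bind. CLDN3 lies on the minus strand (chr7:73770221-73770520) and CLDN4 on the plus strand (chr7:73830746-73831045), each printed 5′ to 3′.
CLDN3: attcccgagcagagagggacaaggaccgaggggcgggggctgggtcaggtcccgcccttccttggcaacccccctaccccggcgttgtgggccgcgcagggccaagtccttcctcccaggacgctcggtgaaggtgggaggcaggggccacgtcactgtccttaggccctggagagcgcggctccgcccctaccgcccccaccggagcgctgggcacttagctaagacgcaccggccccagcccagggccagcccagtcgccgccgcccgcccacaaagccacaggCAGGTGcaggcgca
CLDN4: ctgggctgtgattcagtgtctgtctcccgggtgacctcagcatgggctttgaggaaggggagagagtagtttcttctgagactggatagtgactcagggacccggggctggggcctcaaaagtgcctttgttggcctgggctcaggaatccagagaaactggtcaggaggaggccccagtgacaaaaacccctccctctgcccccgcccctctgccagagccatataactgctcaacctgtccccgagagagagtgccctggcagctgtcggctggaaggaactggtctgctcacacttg
The CLDN3 window held 1 E-box, after the start, and these letters were not in the CLDN4 window. Of all 35116 promoter windows of this length, 20.6% held an E-box.

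CLDN6, a claudin of early embryonic epithelia and pluripotent cells, was at 4477, 4313 and 4580 at d0 and at 4794, 4684 and 5472 with Dox. The RA-labelled arrays gave 4348, 4803 and 5346, and the Dox-labelled arrays 3144, 2918 and 3145. The d0 Dox arrays lay above the d0 arrays, the RA-labelled arrays overlapped both, and all Dox-labelled arrays lay below all other arrays.

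CLDN7, which binds EPCAM at the basolateral membrane, stood at 3684, 3750 and 3976 at d0 and at 1834, 1923 and 1838 with Dox. It was at 426, 417 and 319.6 on the RA-labelled arrays, and at 1082, 1228 and 1166 on the Dox-labelled arrays. No group overlapped another. The order was d0, d0 Dox, Dox-labelled and RA-labelled from high to low, and each step of it passed the test.

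The CLDN7 window is shown for its number of E-boxes (RefSeq, GRCh38.p14, minus strand, chr17:7262429-7262728, 5′ to 3′, E-boxes in capitals).
CLDN7: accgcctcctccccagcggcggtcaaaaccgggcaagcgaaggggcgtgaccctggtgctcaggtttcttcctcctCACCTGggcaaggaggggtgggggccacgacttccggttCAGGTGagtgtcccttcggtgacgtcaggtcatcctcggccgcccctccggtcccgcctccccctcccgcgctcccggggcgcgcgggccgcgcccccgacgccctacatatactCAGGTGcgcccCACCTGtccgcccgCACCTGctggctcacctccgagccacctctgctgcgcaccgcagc
It held 5 E-boxes, a number that 33 of the 35116 windows (0.094%) reached or passed, and another annotated CLDN7 start had none in its window. The window and the count of 5 were picked after the members' windows were searched, so this share is no test. The motif count describes these letters and shows no binding.

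CLDN10, the pore-forming claudin, had intensities of 1334, 1300 and 1371 at d0 and of 1528, 1479 and 1381 with Dox. It was at 526, 412 and 372 on the RA-labelled arrays and at 3291, 3402 and 3311 on the Dox-labelled arrays. The Dox-labelled arrays lay above all others and the RA-labelled arrays below all others, with the d0 groups between them.

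OCLN intensities were 6055, 5642 and 5317 at d0, and 4829, 4882 and 4565 with Dox. The RA-labelled arrays gave 2159, 2097 and 2196, and the Dox-labelled arrays 2189, 2244 and 2095. The day 6 groups overlapped, and both were below every array of either d0 group. Its 4 probe sets shared the lower level at day 6.

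EPCAM was at 20568, 19301 and 20492 at d0, and at 19659, 17092 and 17507 with Dox. The RA-labelled arrays gave 5384, 5534 and 4340.3, and the Dox-labelled arrays 11084.5, 10281 and 10291.5. The d0 groups overlapped, the Dox-labelled arrays lay below them, and the RA-labelled arrays were the lowest.

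RAB25 stood at 1246, 988 and 1237 at d0, at 484.5, 500.5 and 507 with Dox, at 161, 192 and 73.1 on the RA-labelled arrays, and at 864, 796.5 and 729 on the Dox-labelled arrays. No group overlapped another, and the Dox-labelled group lay between the d0 and d0 Dox groups. In the order of levels, the step from d0 to the Dox-labelled arrays and the step from there to d0 Dox did not pass the test.

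The RAB25 window (RefSeq, GRCh38.p14, plus strand, chr1:156060910-156061209, 5′ to 3′, E-boxes in capitals) is shown because RAB25 and CLDN7 shared large differences in some comparisons. These were d0 Dox against d0, the day 6 groups against each other, and the RA-labelled arrays against d0. Against either d0 group, CLDN7 was called lower on the Dox-labelled arrays and RAB25 was not called.
RAB25: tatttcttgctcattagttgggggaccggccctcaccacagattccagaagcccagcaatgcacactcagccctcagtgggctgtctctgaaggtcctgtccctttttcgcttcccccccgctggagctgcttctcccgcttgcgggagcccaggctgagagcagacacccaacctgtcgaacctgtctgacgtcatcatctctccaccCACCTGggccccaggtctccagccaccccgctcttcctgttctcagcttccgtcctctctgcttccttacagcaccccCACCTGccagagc
It held 2 E-boxes. The member search left out the chromosome that carries GRHL2, so GRHL2 was not searched, and no window of EPCAM was searched either. In all, 10 windows of 7 members were searched. Of these, 6 windows of 5 members (CLDN3, CLDN6, CLDN7, OCLN and RAB25) held an E-box, with overlapping windows at OCLN. Of all windows 20.6% held one. The grainyhead motif AACNGGTT, in 1.73% of all windows, and the extended half-site TCAAGGTCA known to bind GCNF, in 0.353%, were not in these windows on either strand.

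GRHL2 was at 609.9, 641 and 603 at d0, and at 433.5, 378 and 352 with Dox. The RA-labelled arrays gave 105, 39.9 and 62.9, around the median of all probe sets, and the Dox-labelled arrays 349.5, 349 and 301. The RA-labelled arrays were the lowest, and the Dox-labelled arrays lay just under the d0 Dox arrays.

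**Figure D1:**
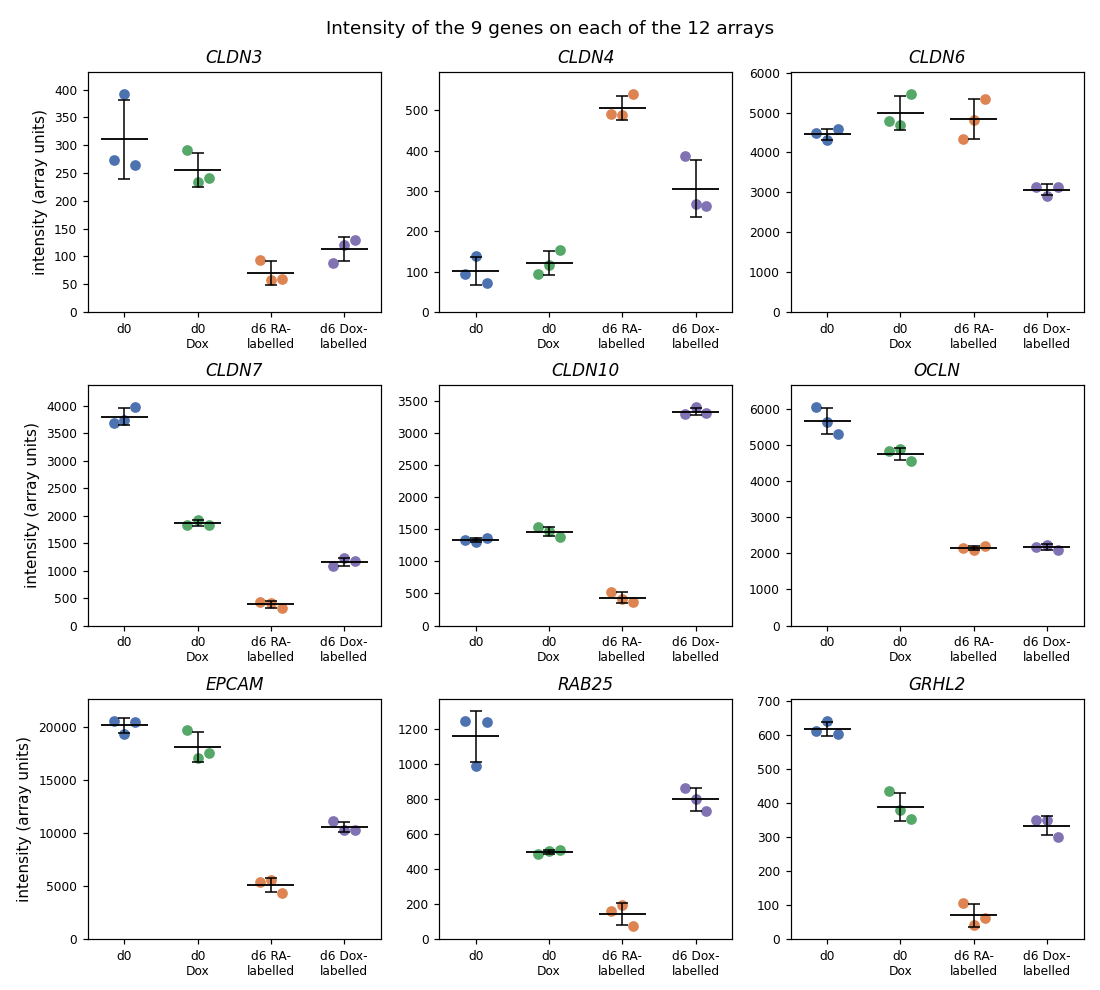
Linear intensity (array units) of each of the 9 genes on each of the 12 arrays, with 1 panel a gene and 1 point an array; lines are group means and bars SD (n = 3), on axes that start at 0. CLDN7 has 4 separate groups, highest at d0 and lowest on the RA-labelled day 6 arrays. CLDN10 is highest on the Dox-labelled day 6 arrays, and CLDN4 is the gene with both day 6 groups above d0.

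With Dox in undifferentiated cells, CLDN7, RAB25 and OCLN fell and no member rose. CLDN7 went from 3803 ± 153 (SD, n = 3) to 1865 ± 50.2, a log2 fold change of -1.02 ± 0.11 (SE; adjusted p = 2.11e-04). RAB25 went from 1157 ± 146 to 497 ± 11.6 (-1.18 ± 0.26, adjusted p = 0.0145), which placed it 77th among the falls of all genes. OCLN had a smaller fall of -0.25 ± 0.07 (adjusted p = 0.0392). Values are log2(intensity + 16) differences, tested with limma and adjusted by Benjamini-Hochberg over all 19775 genes, and a gene with an adjusted p under 0.05 is called.

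The other 6 members did not pass. GRHL2 was at 618 ± 20.6 and 388 ± 41.6, with arrays that did not overlap, a difference of -0.66 ± 0.22 and an adjusted p of 0.0899 in limma. CLDN3 differed by -0.25 (adjusted p = 0.499 in limma) and EPCAM by -0.16 (0.378). CLDN4 gave 0.23 (0.584), CLDN6 0.16 (0.320) and CLDN10 0.13 (0.516). So 0 of 9 members were called higher and 3 lower, where 7.75% and 5.16% of all genes were (12.9% in either direction). The groups did not overlap for 6 of 9 members, where 31.5% of all genes did not. The median difference was -0.25 over the members and 0.03 over all genes.

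The calls of OCLN and RAB25 changed with the arrays or settings used. RAB25 was not called without d0 replicate 1 (adjusted p = 0.0520 in limma), and over its 16 alternatives the adjusted p lay between 0.00111 and 0.0520. OCLN was not called in 9 of 16, with an adjusted p between 0.00662 and 0.147. When all probe sets were tested singly, no OCLN probe set passed, the one that represents it having an adjusted p of 0.115 in limma. GRHL2 was called in 4 of 16, with an adjusted p between 0.0166 and 0.218. The ACTB 3′ to 5′ probe ratio, a measure of RNA quality, was 3.24 ± 0.139 at d0 and 3.86 ± 0.01 with Dox, and its part in these differences was not tested.

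At day 6, CLDN10, RAB25, GRHL2, CLDN7 and EPCAM were higher on the Dox-labelled than on the RA-labelled arrays, and CLDN4 and CLDN6 were lower. CLDN10 stood at 437 ± 79.9 on the RA-labelled and 3335 ± 59.0 on the Dox-labelled arrays (SD, n = 3), 7.47-fold higher by the log2 difference of 2.90 ± 0.11 (adjusted p = 9.96e-08). This placed it 70th among the rises of all genes. With the mean of both CLDN10 probe sets the difference was 1.98 (adjusted p = 3.83e-05, from 3.38e-12 to 2.10e-04 over 16 alternatives). RAB25 was 5.46-fold higher (142 ± 61.5 against 796.5 ± 67.6; 2.45 ± 0.26, adjusted p = 8.64e-05). GRHL2 was 4.29-fold higher, at 69.3 ± 33.1 against 333 ± 27.7 (2.10 ± 0.22, adjusted p = 9.30e-05).

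CLDN7 and its binding partner EPCAM were higher as well. CLDN7 was at 387.5 ± 58.9 and 1159 ± 73.3, 2.93-fold higher on the Dox-labelled arrays (1.55 ± 0.11, limma adjusted p = 4.45e-06). EPCAM was at 5086 ± 650.2 and 10552 ± 461, 2.08-fold higher (1.06 ± 0.10, adjusted p = 4.24e-05).

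The members that were lower on the Dox-labelled arrays were both claudins. CLDN6 went from 4832 ± 499.9 to 3069 ± 131 (-0.65 ± 0.09, limma adjusted p = 5.83e-04), and another CLDN6 probe set gave -1.05. CLDN4 went from 506 ± 29.8 to 306 ± 70.5 (-0.72 ± 0.23, adjusted p = 0.0432). This call was lost in 9 of 15 alternatives, among them leaving out any RA-labelled array or Dox-labelled replicate 2 or 3, with an adjusted p between 0.0136 and 0.130.

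CLDN3 and OCLN did not pass between the day 6 groups. CLDN3 was at 70.3 ± 20.8 and 113 ± 21.9 (0.59 ± 0.21, limma adjusted p = 0.0617) with overlapping arrays, and was called in 5 of 15 alternatives (adjusted p from 0.0140 to 0.181). OCLN was at 2150.4 ± 50.1 and 2176 ± 75.2, a difference of 0.02 whose 95% interval ran from -0.14 to 0.17 (adjusted p = 0.901). Thus 5 of 9 members were called higher and 2 lower, where 13.7% and 12.2% of all genes were (25.9% in either direction). The groups did not overlap for 7 members, where 41.6% of all genes did not.

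Markers of simple epithelium and surface ectoderm were also higher on the Dox-labelled arrays, 5 of 6 past the test, and their summed intensity was 36587 to 38179 on the RA-labelled and 64955 to 68222 on the Dox-labelled arrays. Among them the keratin gene KRT19 stood at 1319 ± 173 and 4938 ± 748 (1.89 ± 0.13, limma adjusted p = 5.20e-06). Endoderm markers summed to 2256 to 4006 and to 8816 to 10399, with 1 of 5 called. The called gene was GATA6, at 1580 and 8032, which made up most of the larger sum. AFP, not called, stood at 1517 and 1429. Of the markers measured, none had a group mean of 0, and the lowest were VWF and PTPRC of endothelial and blood cells, at 10.03 and 11.2 at d0. The part of other cell types in the differences between the day 6 groups was not tested.

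**Figure D2:**
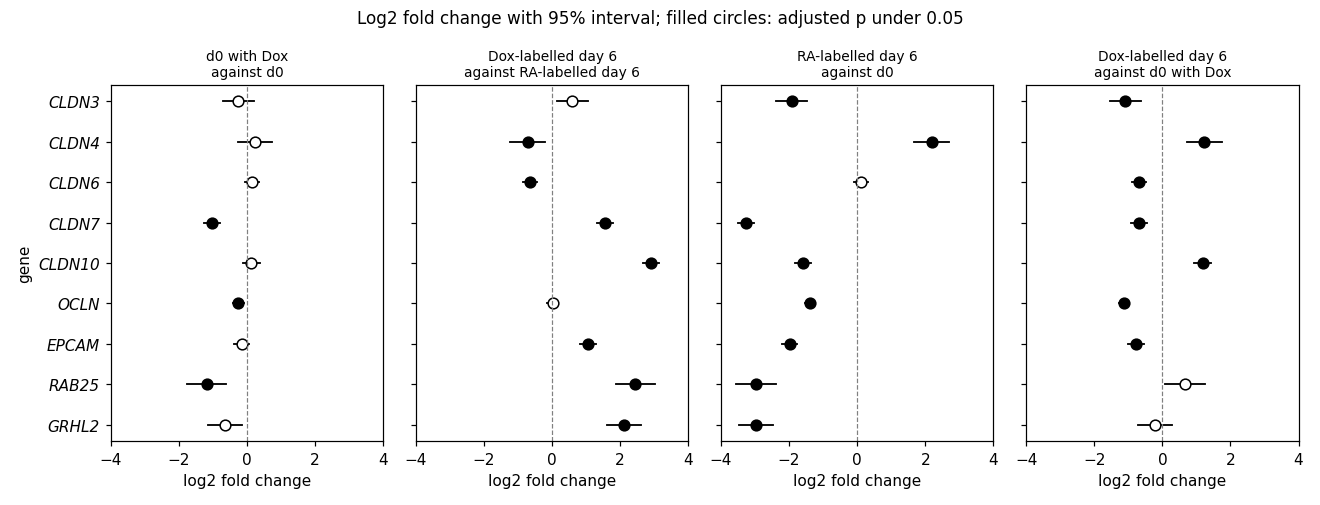
Log2 fold changes of log2(intensity + 16) of the 9 genes in 4 comparisons of 3 against 3 arrays, with 95% intervals; filled circles have a limma adjusted p under 0.05. RAB25 and GRHL2 lie at 2.45 and 2.10 in the comparison of the day 6 groups and both at -2.97 in RA-labelled day 6 against d0.

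From d0 to the RA-labelled arrays, 7 of 9 members fell, CLDN4 rose and CLDN6 was not called. CLDN7 fell by 3.25 ± 0.11 on the log2 scale (SE; limma adjusted p = 4.62e-09), from 3803 to 387.5. RAB25 and GRHL2 each fell by 2.97, with SE of 0.26 and 0.22 (adjusted p = 4.05e-06 and 1.42e-06), RAB25 from 1157 to 142 and GRHL2 from 618 to 69.3. EPCAM fell by 1.99 ± 0.10 (adjusted p = 7.88e-08), from 20120.3 ± 711 to 5086 ± 650.2.

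The remaining claudins and OCLN spanned all 3 outcomes. CLDN3 fell by 1.93 ± 0.21 (limma adjusted p = 1.94e-05), CLDN10 by 1.59 ± 0.11 (7.20e-07) and OCLN by 1.39 ± 0.07 (6.64e-08). CLDN4 rose 4.56-fold, from 102 ± 34.5 to 506 ± 29.8 (2.19 ± 0.23, adjusted p = 1.66e-05). Its other probe set, with group means under 25, differed by -0.27 ± 0.35 and did not pass, so the rise was read by 1 probe set, and the mean of both gave 0.96. CLDN6 differed by 0.11, with a 95% interval from -0.09 to 0.32 (adjusted p = 0.361).

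So 1 of 9 members was called higher and 7 lower, where 25.3% and 25.2% of all genes were (50.5% in either direction). The 2 groups had no array within the range of the other for 8 members, where 56.3% of all genes did not. The median difference was -1.93 over the members and -0.01 over all genes.

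From d0 Dox to the Dox-labelled arrays CLDN10 and CLDN4 rose, 5 members fell, and RAB25 and GRHL2 were not called. CLDN10 went from 1463 ± 74.7 to 3335 ± 59.0, 2.27-fold higher (1.18 ± 0.11, limma adjusted p = 9.19e-06). CLDN4 went from 121 ± 29.7 to 306 ± 70.5 (1.23 ± 0.23, adjusted p = 0.00124). With the mean of its probe sets CLDN4 gave 0.49 and was not called, and over its 15 alternatives the adjusted p lay between 1.12e-04 and 0.155. OCLN fell by 1.12 ± 0.07 (adjusted p = 4.51e-07) and CLDN3 by 1.08 ± 0.21 (0.00145).

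EPCAM, CLDN6 and CLDN7 fell by less than 1 on the log2 scale. EPCAM fell by 0.77 ± 0.10 (limma adjusted p = 1.05e-04), CLDN6 by 0.69 ± 0.09 (1.20e-04) and CLDN7 by 0.68 ± 0.11 (3.61e-04). RAB25, not called, stood at 497 ± 11.6 and 796.5 ± 67.6, a difference of 0.66 ± 0.26 (adjusted p = 0.0616) that was called in 5 of 16 alternatives (adjusted p from 0.00156 to 0.151). GRHL2 differed by -0.21 (adjusted p = 0.506).

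In this comparison 2 of 9 members were called higher and 5 lower, where 22.2% and 23.9% of all genes were (46.1% in either direction). The groups did not overlap for 9 of 9 members, where 55.7% of all genes did not. Both comparisons over time also crossed a change of medium, so time, medium and the added agents cannot be told apart. The 7 pluripotent stem cell markers were called lower in each, and 9 of 10 mesenchymal markers higher. Mesenchymal sums went from 54308 to 55613 at d0 to 141700 to 159245 on the RA-labelled arrays, and from 58432 to 59212 with Dox to 160577 to 162790 on the Dox-labelled arrays. The ACTB 3′ to 5′ ratio also moved, from 3.24 ± 0.139 at d0 to 2.59 ± 0.290 on the RA-labelled arrays, and from 3.86 ± 0.01 with Dox to 2.33 ± 0.06 on the Dox-labelled arrays. The part of these markers and of RNA quality in the members' changes was not tested.

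The difference between these changes, tested as an interaction, was called for 6 members. It was 3.63 ± 0.37 for RAB25 (limma adjusted p = 9.60e-05), 2.77 ± 0.16 for CLDN10 (2.27e-06), 2.76 ± 0.32 for GRHL2 (2.13e-04), 2.57 ± 0.15 for CLDN7 (2.91e-06) and 1.21 ± 0.14 for EPCAM (2.34e-04). By the labels, the changes of these 5 were higher on the way to the Dox-labelled arrays than on the way to the RA-labelled arrays. CLDN6 went the other way, at -0.81 ± 0.13 (adjusted p = 0.00152). CLDN4 (-0.95, adjusted p = 0.0586), CLDN3 (0.84, 0.0627) and OCLN (0.27, 0.0741) did not pass. With the mean of both probe sets CLDN10 gave 1.88. With the day 6 labels exchanged all 6 called differences turned, to -1.26 for RAB25, -3.03 for CLDN10, -1.45 for GRHL2, -0.53 for CLDN7, -0.90 for EPCAM and 0.49 for CLDN6, each still called (limma adjusted p from 1.06e-06 to 0.0388). The interaction equals the difference between the day 6 groups less the difference with Dox at d0 (for RAB25, 2.45 and -1.18). The exchange changes the sign of the day 6 part only, so the interaction turns wherever that part is the larger. Of all genes 11.7% were called higher and 12.5% lower in this test (24.2% in either direction), which uses the same 12 arrays as the comparisons above and is not independent of them.

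Because the labels of the day 6 groups were in doubt, each day 6 group was also set against the other d0 group, with the control arrays shared. Against d0, the Dox-labelled arrays were higher in CLDN10 (1.31) and CLDN4 (1.47), lower in 6 members, and not called for RAB25 (-0.53, limma adjusted p = 0.125). In this comparison 24.6% of all genes were called higher and 23.8% lower (48.5% in either direction), and the groups did not overlap for 9 of 9 members and 56.0% of all genes. Against d0 Dox, the RA-labelled arrays were higher in CLDN4 (1.95), lower in 7 members, and not called for CLDN6 (-0.05, adjusted p = 0.731), where 23.0% and 25.3% of all genes were called (48.3% in either direction). Here the groups did not overlap for 8 of 9 members and 55.8% of all genes. Hence CLDN10 was lower than either d0 group on the RA-labelled arrays and higher than either on the Dox-labelled arrays, whichever d0 group is taken as the start.

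**Figure D3:**
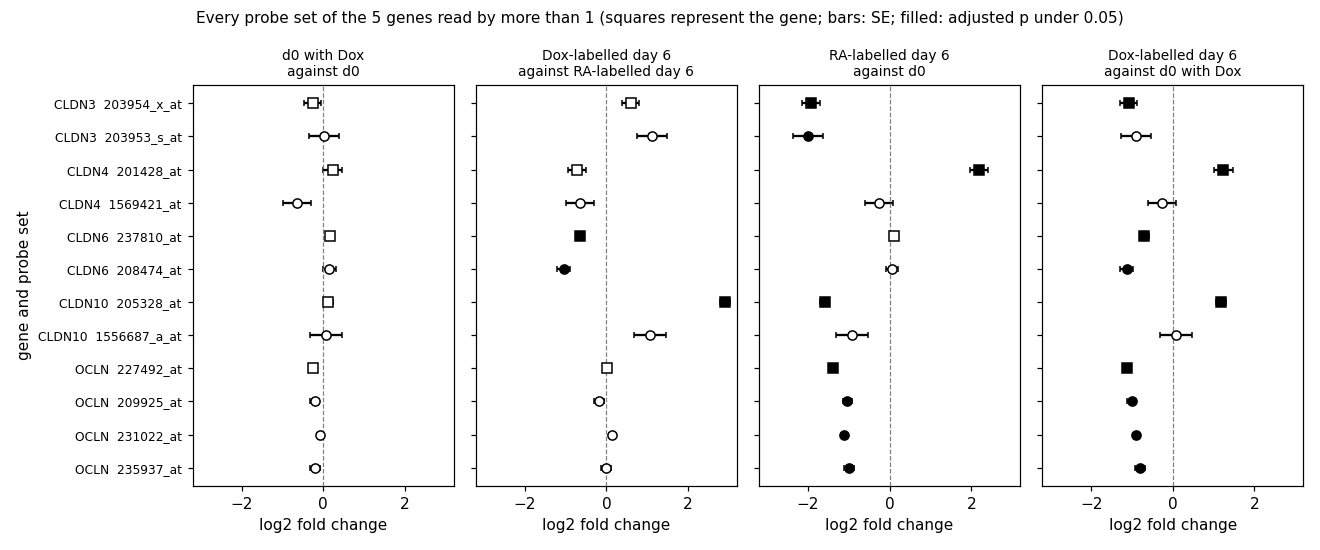
Log2 fold changes with SE of every probe set of the 5 genes read by more than 1, in 4 comparisons, tested over all 54675 probe sets; squares are the probe sets that represent the gene and filled symbols have a limma adjusted p under 0.05. All 4 OCLN probe sets are lower at day 6 in both comparisons over time, while the dimmer probe sets of CLDN4 and CLDN10 pass in none.

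CLDN7, EPCAM, RAB25 and GRHL2 were each read by 1 probe set, and the other 5 genes by more. The other CLDN3 probe set fell by 2.0 to the RA-labelled arrays (adjusted p = 0.00125 in limma over all probe sets), and did not pass from d0 Dox to the Dox-labelled arrays (-0.90, adjusted p = 0.0820). The other CLDN6 probe set fell by 1.13 from d0 Dox to the Dox-labelled arrays (adjusted p = 2.59e-04). The other CLDN10 probe set was dim, with group means from 17.2 to 50.1, and gave 1.06 between the day 6 groups without passing (adjusted p = 0.104).

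The genes outside the members with the highest correlations to them over the 12 arrays were listed, a description of 4 group levels more than of single arrays. Each was picked as the highest among all genes at or above the median level, and no background correlation was computed. The mean of the members also averages genes that opposed each other, such as CLDN3 and CLDN4 (r = -0.93). The gene most like CLDN7 was DMKN (Pearson r = 0.992), and DMKN, NSUN7 and ESRP1 were most like the mean of the members (0.993, 0.992 and 0.992), followed by DLEU1 and MEIOC (both 0.990). The gene most like CLDN10 was CYP26A1 (0.992), the RA-degrading enzyme that went against the labels. For EPCAM it was the sodium channel subunit gene SCNN1A (0.994), for RAB25 MAL2, which serves apical transport (0.973), and for GRHL2 TSN (0.984). For OCLN it was GRTP1 (0.996), for CLDN3 MTLN (0.984), for CLDN4 TBC1D19 (0.984) and for CLDN6 PRKCB (0.975).

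Counts over other junction genes are set against the shares of all genes called higher and lower. These were 7.75% and 5.16% with Dox at d0, and 13.7% and 12.2% between the day 6 groups. They were 25.3% and 25.2% from d0 to the RA-labelled arrays, and 22.2% and 23.9% from d0 Dox to the Dox-labelled arrays. Of 15 other claudins measured, 4 were called higher and 2 lower on the Dox-labelled than on the RA-labelled arrays, with a median of -0.16. Among them were CLDN11 (2.05), CLDN1 (1.31) and CLDN19 (-1.46). From d0 to the RA-labelled arrays none rose and 5 fell, led by CLDN11 (-1.83) and CLDN19 (-1.50), while 3 rose and 4 fell from d0 Dox to the Dox-labelled arrays, which is close to the shares of all genes. With Dox at d0, CLDN11 fell by 0.63 and the other 14 were not called.

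Among tight junction membrane and scaffold genes, from d0 to the RA-labelled arrays 2 of 11 rose and 7 fell (median -0.97), led by MARVELD3 (-2.65), a relative of occludin, and the scaffold gene CGN (-2.21). From d0 Dox to the Dox-labelled arrays 1 of 11 rose, CGNL1 (1.14), and 6 fell (median -0.71, and -0.03 over all genes), led by LSR (-1.54) of tricellular contacts. Of all genes about as many rose as fell in each of these comparisons. Between the day 6 groups 4 were higher and 3 lower on the Dox-labelled arrays (median 0.08), led by CGNL1, which was at 718.6 and 2960.5 (2.02, limma adjusted p = 9.96e-08). With Dox at d0, JAM2 (0.70) and JAM3 (0.50) rose and MARVELD3 (-0.62) and CGNL1 (-0.33) fell, the other 7 not called.

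Among adherens junction genes, CDH1, which encodes E-cadherin, went from 13191 at d0 and 10866 with Dox to 1431.5 on the RA-labelled and 5702 on the Dox-labelled arrays. It fell by 3.19 from d0 to the RA-labelled arrays (limma adjusted p = 1.28e-09) and was 1.98 higher on the Dox-labelled than on the RA-labelled arrays (adjusted p = 1.81e-07). In the list of 9, however, 4 rose and 3 fell from d0 to the RA-labelled arrays, NECTIN4 (1.15) and NECTIN2 (0.75) among the rises. Between the day 6 groups 2 were higher and 2 lower. With Dox at d0, NECTIN3 (0.58) and NECTIN2 (0.55) were among 3 rises and CDH3 (-0.36) was the fall.

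Desmosome genes gave counts near those of all genes over time. Of 13, 5 rose and 3 fell from d0 to the RA-labelled arrays, DSC3 (1.77) and JUP (1.61) leading the rises (median 0.07), and 5 rose and 2 fell from d0 Dox to the Dox-labelled arrays, DSC3 (2.26) and PKP2 (1.46) leading (median 0.17). Between the day 6 groups 4 were higher and 2 lower on the Dox-labelled arrays. With Dox at d0, DSP (0.48) and PERP (0.33) rose and PKP3 (-0.70) fell. The polarity list of 10 gave 4 rises and 4 falls from d0 to the RA-labelled arrays. PALS1 (0.84) and PRKCZ (0.62) led the rises, and CRB3 (-1.44), which sets the apical domain, led the falls.

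Of 8 other epithelial regulators, 5 were called higher and 0 lower on the Dox-labelled than on the RA-labelled arrays (median 0.60). ESRP1, an epithelial splicing regulator, went from 4034 at d0 to 177.7 on the RA-labelled and 1174 on the Dox-labelled arrays (2.66 between the day 6 groups, limma adjusted p = 9.02e-06). ELF3 was 1.74 higher on the Dox-labelled arrays. With Dox at d0, GRHL3 (1.00), a relative of GRHL2, rose and OVOL2 (-1.07) fell.

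Of the 5 EPCAM partners and surface proteases, 3 fell with Dox at d0 and 2 were not called, led by the tetraspanin gene CD9 (13219.5 to 6708, -0.98, limma adjusted p = 3.31e-05) and by ST14 (-0.90). From d0 to the RA-labelled arrays all 5 fell (median -1.17), and from d0 Dox to the Dox-labelled arrays 4 fell and 1 was not called (median -1.14). The shares of all genes called lower in the 3 comparisons were 5.16%, 25.2% and 23.9%. In the RAB11 trafficking list of 11, AP1M2, which sorts cargo to the basolateral side, was the 1 call with Dox at d0 (-0.94). From d0 to the RA-labelled arrays 5 of that list rose, led by RAB11FIP5 (1.03) and RAB11FIP1 (0.72), and 3 fell, led by AP1M2 (-2.04).

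Of the repressors of epithelial genes, ZEB2 went from 48.6 at d0 to 443.3 with Dox, 1245 on the RA-labelled and 740.5 on the Dox-labelled arrays, and its rise with Dox was 2.84. ZEB1 rose by 1.66 with Dox. From d0 to the RA-labelled arrays 4 of 6 rose and 1 fell (median 2.71), led by ZEB2 (4.31) and SNAI2 (3.70). From d0 Dox to the Dox-labelled arrays 4 rose, led by SNAI2 (3.99) and TWIST1 (3.43). Between the day 6 groups ZEB2 was lower (-0.77), while ZEB1 (0.78, from 1343 to 2316; named after its values were seen), TWIST2 (1.52) and TWIST1 (1.45) were higher on the Dox-labelled arrays. Whether these repressors act on the members was not tested.

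**Figure D4:**
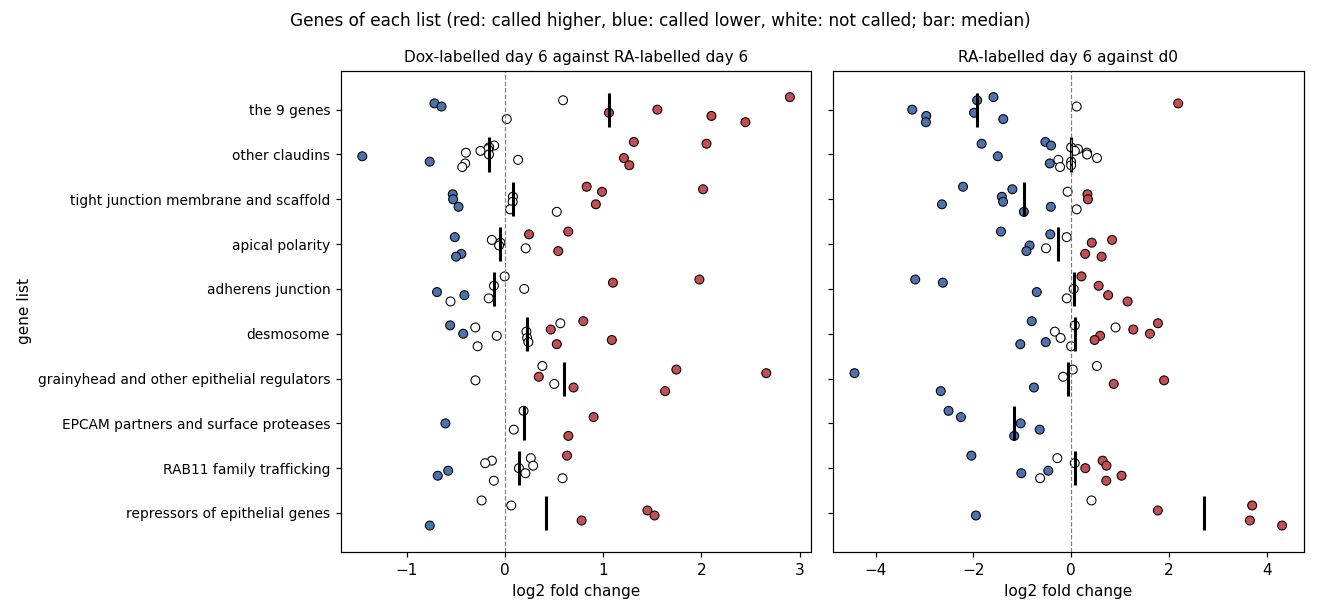
Log2 fold change of each measured gene of the 9 members and of the 9 other lists, between the day 6 groups (left) and from d0 to RA-labelled day 6 (right); red is called higher, blue called lower, white not called, and bars are medians. The members' medians are 1.06 and -1.93, and the repressors' median from d0 to RA-labelled day 6 is 2.71.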

How the data were processed

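Total RNA of 12 samples, 3 in each of 4 groups, was hybridised to 1-colour Affymetrix arrays. The values the authors deposited are linear probe set intensities with an equal trimmed mean on every array; the background correction and the summary of probes are not given in the sources used here. Of 54675 probe sets, 41097 carried 1 gene symbol, 1801 several and the rest none, by the platform annotation with symbols updated through RefSeq. For each of 19775 genes, the brightest probe set on average over the arrays among those with 1 symbol was used. Values were taken as log2(intensity + 16), with no filter on low values, and fitted over all 12 arrays with limma 3.58.1 (lmFit and eBayes, R 4.3.3; 8 residual degrees of freedom), Benjamini-Hochberg over all genes, after a check on simulated data. The number of arrays limits the precision.

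The members and gene lists were chosen with earlier results of these data known. Named genes were all members, up to 2 rises and 2 falls a list among called genes (not every one is printed), and the genes most like each member among those at or above the median level. Alternatives were quantile and median scaling, averaging over a gene's probe sets, testing every probe set, a filter at the median mean, a trended variance, the compared arrays alone, pseudocounts of 1 and 64, a replicate block, and leaving out each array. Exchanging the day 6 labels was added after seeing the data. No array pair held identical values.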

Additional observations from a re-analysis of the deposited data

Results flagged for a closer look

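The change from d0 Dox to the Dox-labelled arrays differed from the change from d0 to the RA-labelled arrays, by limma's interaction test, for 6 members, and these differences rest on the day 6 labels. On the log2 scale the difference was 3.63 for RAB25, 2.77 for CLDN10, 2.76 for GRHL2, 2.57 for CLDN7, 1.21 for EPCAM and -0.81 for CLDN6. None of these 6 changed direction under another scaling, summary, filter, variance model or pseudocount, with the replicate block, or without any 1 array. With the day 6 labels exchanged all 6 turned and were still called, at -1.26, -3.03, -1.45, -0.53, -0.90 and 0.49 in the same order. This turn follows from day 6 differences larger than those with Dox at d0, and is not a separate result. With 3 arrays a group, no test for a single outlying array was made.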

How the results depend on the processing

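The number of members called was 3 with Dox at d0, 7 between the day 6 groups, 8 from d0 to the RA-labelled arrays, 7 from d0 Dox to the Dox-labelled arrays and 6 in the interaction. Leaving out 1 array gave 1 to 3, 6 to 8, 8, 7 and 6 to 8, the count of 1 arising without d0 replicate 1. Correlations of deviations between same-number arrays of different groups ran from -0.02 to 0.16 (median 0.05). Between other-number arrays they ran from -0.17 to 0.07 (median -0.03), so same-number arrays were slightly more alike, though all values were small. With the replicate block the counts were 2, 6, 8, 7 and 6. Over the 755 planned values of single members, 703 kept direction and side of the threshold, 20 lost the call, 28 gained it and 4 reversed, none of the last called. These were CLDN4 with Dox at d0 (-0.21 with the mean of its probe sets) and OCLN between the day 6 groups (-0.0083 with that mean, -0.0013 without RA-labelled replicate 2, -0.0057 without Dox-labelled replicate 2, and -0.0057 to 0.043 over all arrays left out). With the day 6 labels exchanged, the changes over time reversed for CLDN6 (-0.54) and CLDN10 (1.31) from d0, and for CLDN10 (-1.72) and RAB25 (-1.79) from d0 Dox. The exchange also turned the interaction for 8 members, RAB25 (-1.26), CLDN10 (-3.03), GRHL2 (-1.45), CLDN7 (-0.53), EPCAM (-0.90), CLDN6 (0.49), CLDN3 (-0.34) and CLDN4 (0.49), the last 2 not called either way. Median centring moved the median of all genes by 0.14 from d0 Dox to the Dox-labelled arrays. Levels near the pseudocount, as for GRHL2 on the RA-labelled arrays, understate folds, and CLDN3 and CLDN4 were not tested under the filter.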
